A study of Homo sapiens with 4 samples.

Results

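Epithelial and mesenchymal state genes are the genes by which an epithelial cell and a mesenchymal cell are usually told apart, together with the transcription factors that switch between the states. The 10 genes described here were the adhesion genes *CDH1* (E-cadherin) and *EPCAM* of epithelial cells, *CDH2* (N-cadherin) and *VIM* (the intermediate filament vimentin) of mesenchymal cells, and the transcription factor genes *SNAI1*, *SNAI2*, *ZEB1*, *ZEB2*, *TWIST1*, and *TWIST2*. They were chosen by name, for their known roles, out of 20033 protein-coding genes. All peaks that overlapped a gene body or the 10 kb on either side of it were taken, and a peak was counted at a promoter when its centre lay between 1000 bp upstream and 100 bp downstream of an annotated transcription start site (GENCODE 44, hg38).

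In the epithelial-mesenchymal transition, the SNAI and ZEB proteins bind E-box sequences in the promoters of epithelial genes such as *CDH1* and repress them, and the TWIST proteins act in the same programme. Synovial sarcoma is a mesenchymal tumour that carries the SS18::SSX fusion, and its biphasic form also holds epithelial structures. SS18::SSX is a subunit of SWI/SNF chromatin-remodelling complexes, and WDR5 is a scaffold of the complexes that methylate lysine 4 of histone H3.

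The cells were HSSY II, an established synovial sarcoma line that carries SS18::SSX1. The control was DMSO for 4 days (mock), and the other was 2.5 μM MS67 for 4 days, a WDR5 PROTAC that recruits the VHL ligase so that WDR5 is degraded. In each condition, 1 CUT&RUN library was made with an anti-SS18::SSX antibody and 1 with an anti-WDR5 antibody, so that 4 peak lists were compared. In CUT&RUN, a nuclease tethered to an antibody releases the DNA fragments next to the bound protein, and these are sequenced. All libraries held mouse fibroblasts as a spike-in, and in the SS18::SSX libraries an anti-GFP antibody for the spike-in cells was added to the same tube. HSSY II is a single line, a peak is not a measure of expression, and the state of the cells could not be checked from these lists. With 1 library per condition, no difference below has a replicate check, and no test was made.

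The lists held 15141 SS18::SSX peaks with DMSO, 1175 with MS67, 35605 WDR5 peaks with DMSO, and 14123 with MS67. For each peak, MACS2 gives a fold enrichment, which compares the fragments at the summit with those of the surrounding region, the local background, and a −log10 q, which grows as the summit becomes less likely under that background. Fold and p-value together give how many fragments stood at a summit. A single count fitted every peak of the members, while more than 1 count fitted 2 to 221 peaks of each whole list. From these fragments, the genome-wide coverage came to 0.541 and 0.737 fragments per bp for SS18::SSX with DMSO and MS67, and 0.368 and 0.168 for WDR5. The SS18::SSX library with MS67 was thus the deeper of its pair (1.36 times), and the WDR5 library with MS67 the shallower (0.458 times).

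The 5 stretches of 200 bases printed here around the summit of a peak are chosen examples and do not stand for all peaks of these genes. The first 3 are SS18::SSX summits with DMSO, at the *TWIST2* promoter, an intron of *CDH2*, and an alternative start of *ZEB2*, and the last 2 are WDR5 summits with DMSO, upstream of *VIM* and at the 5′ start of *ZEB1*. Each is written 5′ to 3′ on the strand of its gene, from hg38. Capitals mark the letters CACCTG (the E-box core of the SNAI and ZEB proteins), CCAAT, and GGGCGG (a GC box), on either strand.
TWIST2, chr2:238847388-238847587, plus strand: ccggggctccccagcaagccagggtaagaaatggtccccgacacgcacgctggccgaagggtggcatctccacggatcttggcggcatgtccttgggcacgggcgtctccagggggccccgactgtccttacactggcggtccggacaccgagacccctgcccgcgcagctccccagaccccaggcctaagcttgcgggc
CDH2, chr18:28175889-28176088, minus strand: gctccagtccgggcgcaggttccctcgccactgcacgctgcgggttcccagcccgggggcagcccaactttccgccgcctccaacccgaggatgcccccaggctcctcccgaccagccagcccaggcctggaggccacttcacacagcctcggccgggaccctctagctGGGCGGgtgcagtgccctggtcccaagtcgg
ZEB2, chr2:144517117-144517316, minus strand: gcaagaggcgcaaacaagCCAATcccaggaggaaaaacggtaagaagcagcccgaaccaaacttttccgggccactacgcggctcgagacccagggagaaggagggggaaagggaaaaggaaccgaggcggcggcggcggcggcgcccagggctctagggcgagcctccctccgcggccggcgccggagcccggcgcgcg
VIM, chr10:17226829-17227028, plus strand: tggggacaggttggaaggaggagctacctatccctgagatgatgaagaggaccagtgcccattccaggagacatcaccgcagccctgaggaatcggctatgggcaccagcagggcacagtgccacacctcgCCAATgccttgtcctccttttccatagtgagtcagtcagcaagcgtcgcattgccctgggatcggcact
ZEB1, chr10:31318228-31318427, plus strand: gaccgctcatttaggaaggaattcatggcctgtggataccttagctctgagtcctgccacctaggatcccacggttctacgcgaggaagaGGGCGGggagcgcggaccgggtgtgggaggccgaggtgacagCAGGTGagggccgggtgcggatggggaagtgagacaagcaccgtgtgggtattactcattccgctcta
The 3 SS18::SSX stretches had a GC content of 69.5% (*TWIST2*), 72.5% (*CDH2*), and 69% (*ZEB2*), above the median of 60% over all SS18::SSX summits with DMSO. They come from the upper part of the range of the members' 10 SS18::SSX summits with DMSO, which was 44.5 to 72.5%. The *VIM* and *ZEB1* stretches had 58% and 60.5%, next to a median of 58% over the WDR5 summits. Of the 5, the *ZEB1* stretch is the one with an E-box core.

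With DMSO, all 10 genes had a WDR5 peak in their window, and 5 had an SS18::SSX peak (*CDH2*, *SNAI1*, *ZEB2*, *TWIST1*, and *TWIST2*). The background over all protein-coding genes was 75.0% for WDR5 and 31.8% for SS18::SSX. With MS67, 5 of the genes had a WDR5 peak (*CDH1*, *CDH2*, *SNAI1*, *ZEB1*, and *TWIST1*; background 54.1%), and 1, *SNAI1*, had an SS18::SSX peak (background 3.63%). In peaks, SS18::SSX went from 10 with DMSO to 1 with MS67 and WDR5 from 31 to 8. The windows of these genes are long, with a median of 99574.5 bp next to 47471 bp over all genes, so the peak density is the closer comparison. Per Mb of window, the members held 8.83 SS18::SSX peaks with DMSO (8.39 over all windows), 27.4 WDR5 peaks with DMSO (22.9), 0.883 SS18::SSX peaks with MS67 (0.589), and 7.07 WDR5 peaks with MS67 (10.2). The density of the members was near that of all windows for SS18::SSX with DMSO. It was somewhat higher for WDR5 with DMSO and lower for WDR5 with MS67. The value for SS18::SSX with MS67 rests on 1 peak. The 10 genes differed among themselves in density as well as in where the peaks stood. With DMSO, WDR5 ranged from 8.46 (*CDH1*) to 116 (*SNAI1*) peaks per Mb, and SS18::SSX from 0 to 38.6 (*SNAI1*).

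**Figure D1:**
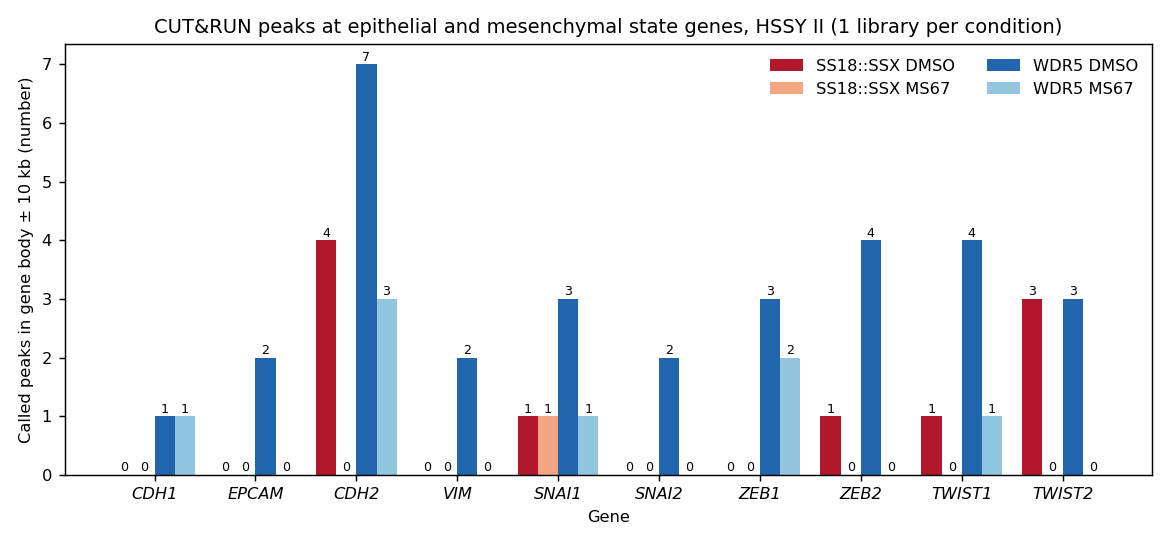
Number of called peaks (y axis) in the gene body plus 10 kb on each side for each of the 10 genes (x axis), with 1 bar per library and the count above it. WDR5 peaks with DMSO were called at all 10 genes, and the single SS18::SSX peak with MS67 lay at SNAI1.

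Promoters gave a narrower picture. SS18::SSX with DMSO had a promoter peak at 3 of the 10 genes (*CDH2*, *ZEB2*, and *TWIST2*), with a background of 13.4%, and WDR5 with DMSO at 6 (*EPCAM*, *CDH2*, *VIM*, *SNAI1*, *ZEB1*, and *TWIST2*), with a background of 43.0%. With MS67, SS18::SSX had none (background 0.724%), and WDR5 had 2 (*CDH2* and *ZEB1*; background 27.7%). *CDH2* and *TWIST2* had a promoter peak of both targets with DMSO, which 9.34% of all genes did. Any annotated start counted, and the genes had from 1 (*SNAI1*) to 46 (*ZEB2*) of these, with 21 at *ZEB1* and 11 at *CDH2*. A gene with more starts has more places for a promoter peak, and the shares were not adjusted for this. When only the 5′ end of each gene record was used as a start, the counts fell to 1 gene for SS18::SSX with DMSO and 0 for WDR5 with MS67. The share of all genes was not counted with this start, so the backgrounds above do not apply to these 2 counts.

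The epithelial genes had no SS18::SSX peak in either condition. Most genes had none either, since 31.8% of all genes had one with DMSO and 3.63% with MS67. For *CDH1* on chromosome 16 (68737292 to 68835537, plus strand), which encodes the cadherin of epithelial adherens junctions, the nearest SS18::SSX peak with DMSO was 91.1 kb from the gene body. WDR5 had no peak in the *CDH1* gene body either. Its 1 peak with DMSO lay 8.76 kb past the 3′ end of the gene, at 68844294 to 68844471, within an intron of the neighbouring gene *TANGO6*, with 10 fragments at the summit, 5.57-fold enrichment, and a −log10 q of 4.92. The 1 WDR5 peak with MS67 lay 325 bp from it, at 68843638 to 68843968, in a coding exon of *TANGO6*, with 5 fragments and a −log10 q of 2.22. The *CDH1* start site was thus without a peak in all 4 lists, and both WDR5 peaks counted for it belong by position to *TANGO6*.

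*EPCAM*, which encodes an epithelial adhesion molecule, lies on chromosome 2 (47345158 to 47387601, plus strand) and has a distant and a main start site. WDR5 with DMSO had a peak at each. The one at the main start, 47369154 to 47369666, had 12 fragments, 7.71-fold enrichment, and a −log10 q of 8.34. The one at the distant start, 47345062 to 47345429, had 10 fragments, 7.48-fold enrichment, and a −log10 q of 7.66, and it lay at the promoter of the divergent long noncoding RNA gene *EPCAM-DT* as well. These were the 2 highest folds among the 31 WDR5 peaks of the members, in a region where the local background was close to the genome-wide coverage (1.87 and 1.28 times). With MS67, neither had an overlapping WDR5 peak, and the nearest was 23115 bp from the peak at the distant start. The nearest SS18::SSX peak with DMSO was 182 kb from the *EPCAM* gene body.

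The mesenchymal pair differed in SS18::SSX, and also in window length (265068 bp for *CDH2* and 29353 bp for *VIM*). *CDH2*, which encodes the cadherin of mesenchymal and neural cells, lies on chromosome 18 (27932879 to 28177946, minus strand) and had the most peaks of the 10 genes, with 4 of SS18::SSX and 7 of WDR5 with DMSO. Windows with at least 4 SS18::SSX peaks made up 4.57% of all genes, and those with at least 7 WDR5 peaks 3.23%. The *CDH2* window is also the longest of the 10, at 265068 bp, and per Mb it held 15.1 SS18::SSX peaks (8.39 over all windows) and 26.4 WDR5 peaks (22.9), so its WDR5 count was near that of all windows for its length. The tallest SS18::SSX peak of the 10 genes lay in a *CDH2* intron at 28175368 to 28176525, with its centre 1183 bp downstream of the canonical start site. It had 30 fragments over a background of 4.61, 5.52-fold enrichment, and a −log10 q of 10.5, within the top 3.75% of its list, and its summit sequence is the *CDH2* stretch printed above.

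At the same *CDH2* intron site, WDR5 with DMSO had a peak at 28175364 to 28176292 with 25 fragments and a −log10 q of 4.85. WDR5 with MS67 kept a narrower peak there, 28175450 to 28175656, with 13 fragments and a −log10 q of 2.10, whereas the nearest SS18::SSX peak with MS67 was 4593549 bp away. The local background of these 2 WDR5 peaks was 18.0 and 18.7 times the genome-wide coverage, among the highest of the members, so a high summit count at *CDH2* went with a high background around it. A second *CDH2* cluster lay at an internal start site in the gene, 28013812, where SS18::SSX with DMSO had peaks at 28013689 to 28013833 (15 fragments) and 28014193 to 28014389 (17 fragments) and WDR5 had a peak at 28013685 to 28013858 (19 fragments). This internal start, and not the main one, gave *CDH2* its promoter peak for both targets with DMSO.

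At the main *CDH2* promoter, WDR5 had a peak with MS67 only. It lay at 28177372 to 28177618, 365 bp upstream of the canonical start, with 16 fragments, 3.78-fold enrichment, and a −log10 q of 3.18, and the nearest WDR5 peak with DMSO was 1079 bp away. A further WDR5 peak with MS67 lay upstream at 28183682 to 28183878 (14 fragments) and had no DMSO counterpart within 7389 bp. Of the other WDR5 peaks with DMSO, 3 lay together in an intron between 28048856 and 28050175, with 19 to 27 fragments, 1 lay at 28110336 to 28110536, with 18, and 1 lay in coding sequence at 28009699 to 28010001, with 16. The last SS18::SSX peak of *CDH2* lay upstream of the gene at 28180828 to 28180972, with 20 fragments and a −log10 q of 4.41, away from WDR5.

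*VIM*, on chromosome 10 (17228241 to 17237593, plus strand), had the 2 WDR5 peaks of highest −log10 q among the 10 genes and no SS18::SSX peak, the nearest with DMSO being 216 kb from the gene body. The taller lay at 17226809 to 17227388, 1142 bp upstream of the start, with 36 fragments over a background of 4.13, 7.21-fold enrichment, and a −log10 q of 16.9, which placed it in the top 0.739% of the WDR5 list. It fell outside the promoter interval of *VIM* and inside that of the antisense gene *VIM-AS1*. The other lay over untranslated exon sequence at 17228345 to 17228674, with 28 fragments, 5.52-fold enrichment, and a −log10 q of 10.3. With MS67, the *VIM* window held no WDR5 peak, and the nearest was 26.6 kb from the gene body. Scaled to the coverage of the MS67 library, the 2 summits would hold 16.5 and 12.8 fragments with a −log10 p of 11.1 and 7.53, well above the 4.06 of the weakest peak in that list.

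**Figure D2:**
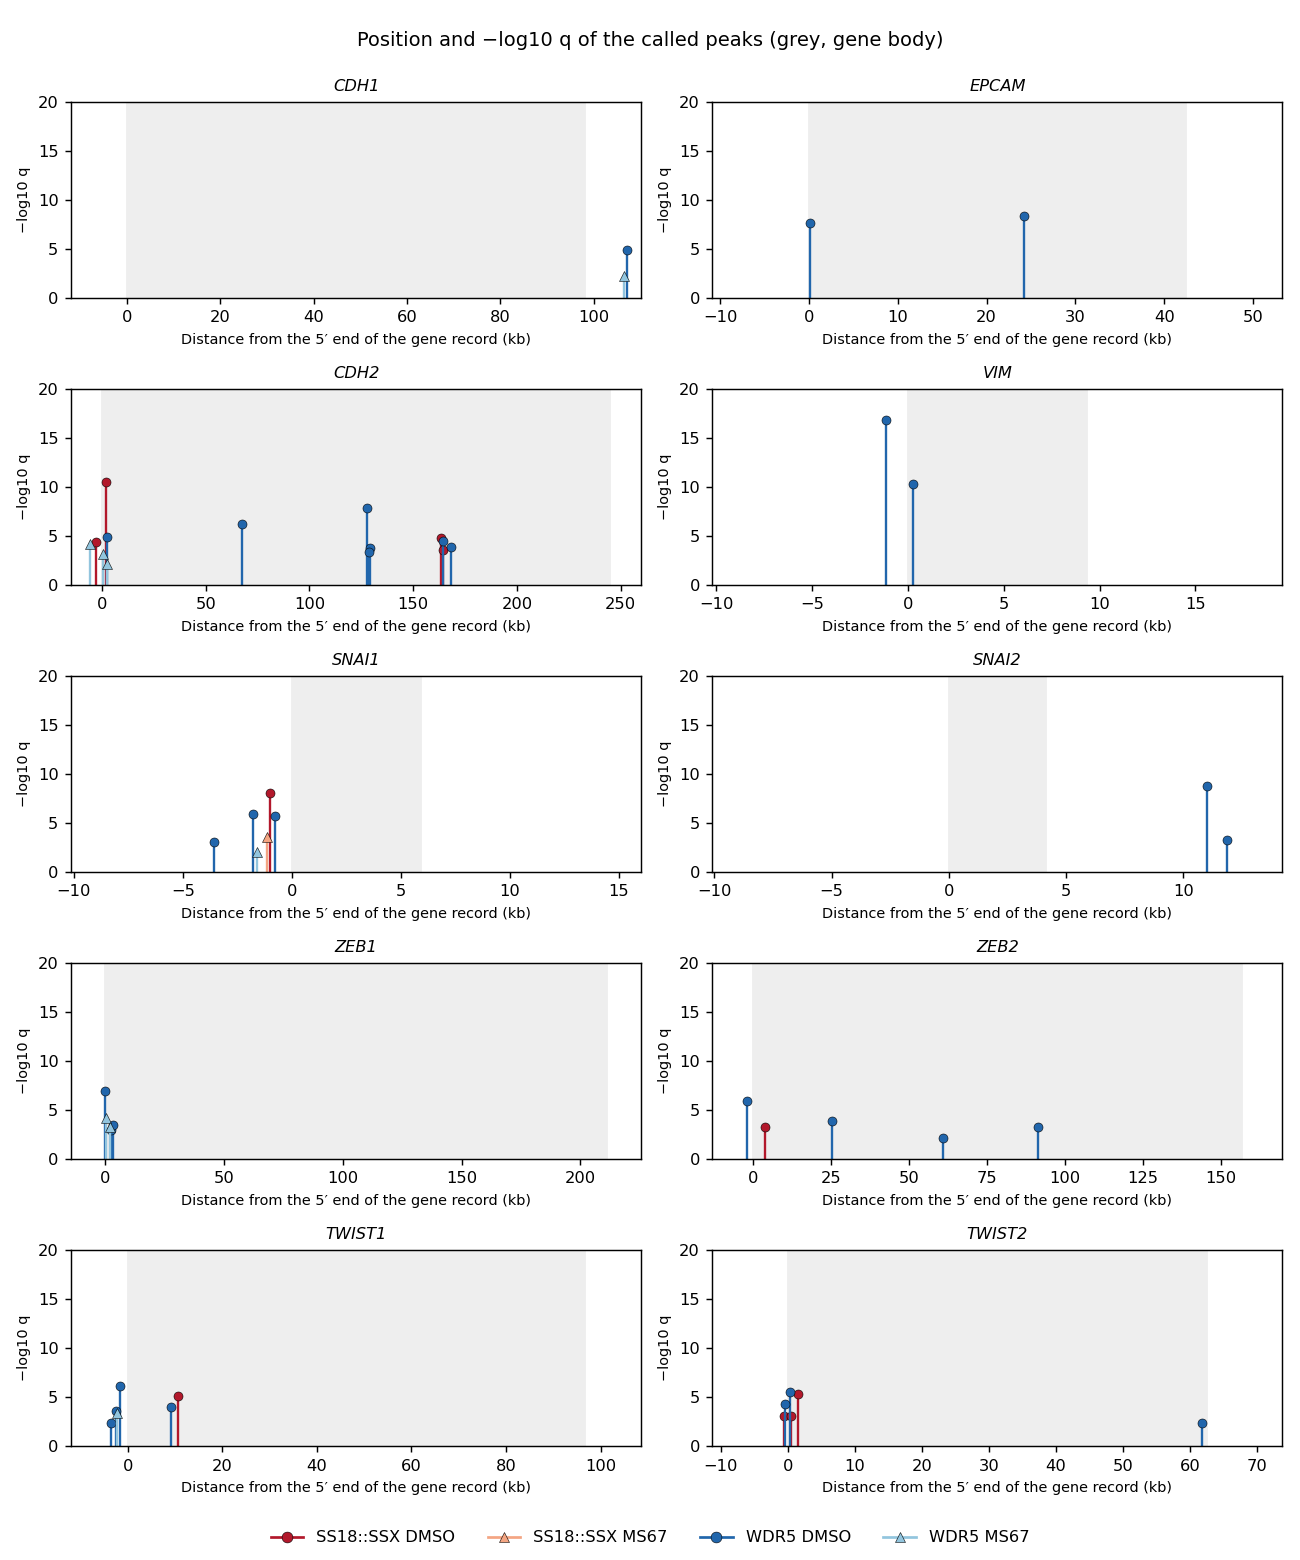
Position of each peak centre relative to the 5′ end of the gene record (x axis, kb, downstream to the right) against its −log10 q (y axis), with 1 panel per gene, the gene body in grey, and 10 kb of flank on each side. VIM holds the 2 tallest WDR5 peaks, CDH2 the tallest SS18::SSX peak, and CDH1 and SNAI2 have peaks only past the 3′ end.

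Among the regulators, *SNAI1* was the one gene with a peak in all 4 lists. *SNAI1* encodes the zinc-finger repressor Snail and lies on chromosome 20 (49982980 to 49988886, plus strand), with a single annotated start, and all of its peaks lay upstream of it. SS18::SSX with DMSO had a peak at 49981489 to 49982430, with 23 fragments, 5.47-fold enrichment, and a −log10 q of 8.07, in the top 8.46% of its list. Its centre was 1020 bp upstream, just outside the promoter interval. Counted by any overlap with that interval, *SNAI1* would have an SS18::SSX promoter peak with DMSO and with MS67. With MS67, SS18::SSX had a peak within the span of its DMSO peak, 49981591 to 49982110, with 18 fragments, 4.23-fold enrichment, and a −log10 q of 3.53. The centre of this MS67 peak was 1129 bp upstream of the start, also outside the promoter interval.

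The *SNAI1* peak that stayed was therefore lower in a deeper library. At the coverage of the MS67 library, 23 fragments would scale to 31.4, next to the 18 found, while the local background was 3.39 with DMSO and 3.49 with MS67. WDR5 with DMSO had 3 peaks upstream of *SNAI1*, at 49979258 to 49979521 (17 fragments), 49980874 to 49981519 (23 fragments), and 49981694 to 49982707 (23 fragments), and the last 2 overlapped the SS18::SSX peak. With MS67, 1 WDR5 peak was left at 49981263 to 49981536, with 8 fragments and a −log10 q of 2.02, over the middle of the 3, and it lay 54 bp from the SS18::SSX peak with MS67. The peak closest to the *SNAI1* start, the one at its promoter, had no WDR5 counterpart with MS67.

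*SNAI2*, which encodes Slug, lies on chromosome 8 (48917598 to 48921740, minus strand). It had 2 WDR5 peaks with DMSO, both past the 3′ end of the gene and none at the start. The one at 48910530 to 48910921 had 25 fragments and a −log10 q of 8.77, and the one at 48909780 to 48909969 had 16 and 3.27. The nearest SS18::SSX peak with DMSO was 55.9 kb from the *SNAI2* gene body, and the nearest WDR5 peak with MS67 159.5 kb.

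*ZEB1*, a zinc-finger and homeobox repressor gene on chromosome 10 (31318495 to 31529814, plus strand), had WDR5 at its start in both conditions but not at the same places. With DMSO, WDR5 had peaks at 31318240 to 31318424 (17 fragments, −log10 q of 6.88), 31320949 to 31321158 (12 fragments, 2.92), and 31321803 to 31321972 (13 fragments, 3.41). With MS67, it had peaks at 31318802 to 31318963 (11 fragments, 4.17) and 31320484 to 31320647 (10 fragments, 3.20), which lay 377 and 301 bp from the nearest DMSO peak. All 5 were at a promoter of an annotated *ZEB1* transcript, and both with MS67 and the second with DMSO were also at a promoter of the antisense gene *ZEB1-AS1*. *ZEB1* thus kept a WDR5 promoter peak with MS67 by gene and lost every DMSO peak by position. The nearest SS18::SSX peak with DMSO was 53.1 kb from the *ZEB1* gene body.

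*ZEB2*, which encodes the paralogue of ZEB1, lies on chromosome 2 (144364364 to 144521057, minus strand). Its 1 SS18::SSX peak with DMSO, at 144517098 to 144517298, had 10 fragments, 4.61-fold enrichment, and a −log10 q of 3.20, and lay over coding sequence near an alternative start and at the promoter of the antisense gene *ZEB2-AS1*. It did not overlap WDR5, whose nearest peak was 5562 bp away. That WDR5 peak, at 144522861 to 144523109 (18 fragments, −log10 q of 5.91), was upstream of *ZEB2* at the promoter of the long noncoding RNA gene *LINC01412*. The other 3 WDR5 peaks of *ZEB2* lay deep in the gene with 5 to 13 fragments. No *ZEB2* peak of either target was called with MS67.

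The TWIST genes encode basic helix-loop-helix factors. *TWIST2* on chromosome 2 (238848032 to 238910534, plus strand) had 3 SS18::SSX peaks with DMSO in its window, all within 2 kb of its start. At least 3 in the window, at any distance from the start, were found for 7.39% of all genes. They lay at 238847362 to 238847600 (16 fragments, −log10 q of 3.07), 238848373 to 238848509 (16 fragments, 3.08), and 238849389 to 238849806 (20 fragments, 5.33), with 3.63-, 3.63-, and 4.42-fold enrichment. The first 2 lay within WDR5 peaks, at 238847240 to 238847870 (15 fragments, 4.28) and 238848154 to 238848556 (17 fragments, 5.54), on either side of the *TWIST2* start. The third WDR5 peak of *TWIST2*, with 5 fragments, lay at the far end of the gene at 238909597 to 238909912. With MS67, the *TWIST2* window had no peak of either target, and the nearest WDR5 peak was 395 kb from the gene body.

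*TWIST1*, on chromosome 7, has a GENCODE record of 19020991 to 19117636 (minus strand), whereas RefSeq gives 19113047 to 19117636. Its SS18::SSX peak with DMSO, at 19106901 to 19107085 (15 fragments, 5.12-fold enrichment, −log10 q of 5.12), and 1 WDR5 peak, at 19108398 to 19108662 (22 fragments, 3.96), lay past the 3′ end of the RefSeq gene. The other 3 WDR5 peaks with DMSO lay 1698 to 3544 bp upstream of the *TWIST1* start, at a long noncoding RNA gene named only by its identifier (ENSG00000236536), with 13 to 19 fragments. The middle one, 19119921 to 19120326 (15 fragments, 3.58), overlapped the 1 WDR5 peak with MS67, 19119899 to 19120080 (12 fragments, 3.39). *TWIST1* had no promoter peak in any list.

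**Figure D3:**
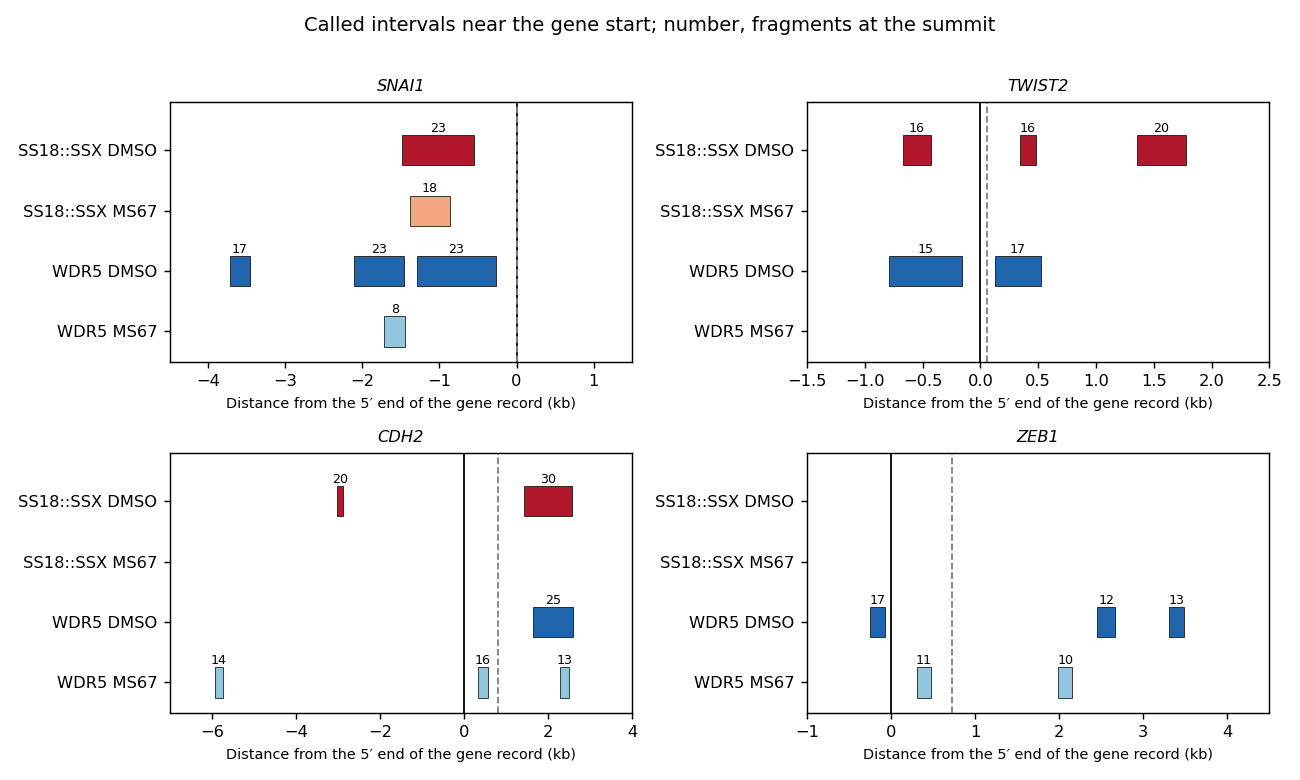
Called intervals (bars) around the start of SNAI1, TWIST2, CDH2, and ZEB1, with 1 row per library, the distance from the 5′ end of the gene record on the x axis (kb), and the number of fragments at each summit above its bar. The solid line is the 5′ end of the gene record and the dashed line the canonical start; SS18::SSX with MS67 has an interval at SNAI1 alone, and the WDR5 intervals of ZEB1 with MS67 lie between those with DMSO.

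Across the 10 genes, 5 of the 10 SS18::SSX peaks with DMSO overlapped a WDR5 peak with DMSO by at least 1 bp (95% CI 18.7 to 81.3%, exact Clopper-Pearson), next to 33.7% of all SS18::SSX peaks. These 5 lay at *CDH2* (2), *TWIST2* (2), and *SNAI1* (1). In the other direction, 6 of the 31 WDR5 peaks (19.4%, 95% CI 7.45 to 37.5%) overlapped SS18::SSX, next to 13.9% of the whole list. Both intervals hold the share of the whole list. The intervals describe counting error alone and leave out how libraries vary, and peaks at 1 gene share a locus. The SS18::SSX peaks of *ZEB2* and *TWIST1* had no WDR5 overlap, and *CDH1*, *EPCAM*, *VIM*, *SNAI2*, and *ZEB1* had WDR5 alone.

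With MS67, 1 of the 10 SS18::SSX peaks kept an overlapping peak (10%, 95% CI 0.253 to 44.5%), that of *SNAI1*, next to 5.81% of the whole list. For WDR5, 3 of the 31 did (9.68%, 95% CI 2.04 to 25.8%), in the *CDH2* intron and upstream of *SNAI1* and *TWIST1*, next to 25.0% of the whole list. With a peak within 1 kb counted as kept, the WDR5 count rose to 8 of 31. The share of the whole list was not counted under this looser rule, so the 25.0% is not its background. Counted by gene, 5 of the 10 genes with a WDR5 peak with DMSO had one with MS67 anywhere in the window (background 69.2%), as did 1 of the 5 genes for SS18::SSX (background 10.8%). Of the 8 WDR5 peaks with MS67, 3 overlapped one with DMSO (37.5%, 95% CI 8.52 to 75.5%), next to 64.4% of the list. The other 5 were the 2 of *ZEB1*, the peaks at and upstream of the *CDH2* promoter, and the peak past *CDH1*. The length covered by peaks fell from 3767 to 520 bp for SS18::SSX (0.138 times, 0.0984 over the whole lists) and from 10781 to 1764 bp for WDR5 (0.164 times, 0.294 over the whole lists).

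The MS67 library was deeper than the DMSO library for SS18::SSX and shallower for WDR5. The DMSO summits were therefore scaled to the coverage of the MS67 library, without sampling variation, and the part of depth in the losses was not tested. At the coverage of the SS18::SSX library with MS67, all 9 of the lost SS18::SSX peaks would pass the −log10 p of the weakest peak in that list (5.04) if they kept their share of the library. So would 14224 of the 14262 SS18::SSX peaks lost over the whole list. For WDR5, whose MS67 library was shallower, 13396 of the 26708 peaks lost over the whole list would pass the corresponding 4.06. Of the 28 lost at the members, 16 would pass and 12 would not. The 16 include both *EPCAM* and both *VIM* peaks, and the taller *SNAI2* peak. Whether the lower WDR5 coverage came from the sequencing or from less WDR5 on chromatin cannot be told apart here, since spike-in counts were not analysed. The members' WDR5 peaks with DMSO lay on a median local background of 8.83 times the genome-wide coverage, next to 4.91 over the whole list, and its part in the losses was not tested.

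**Figure D4:**
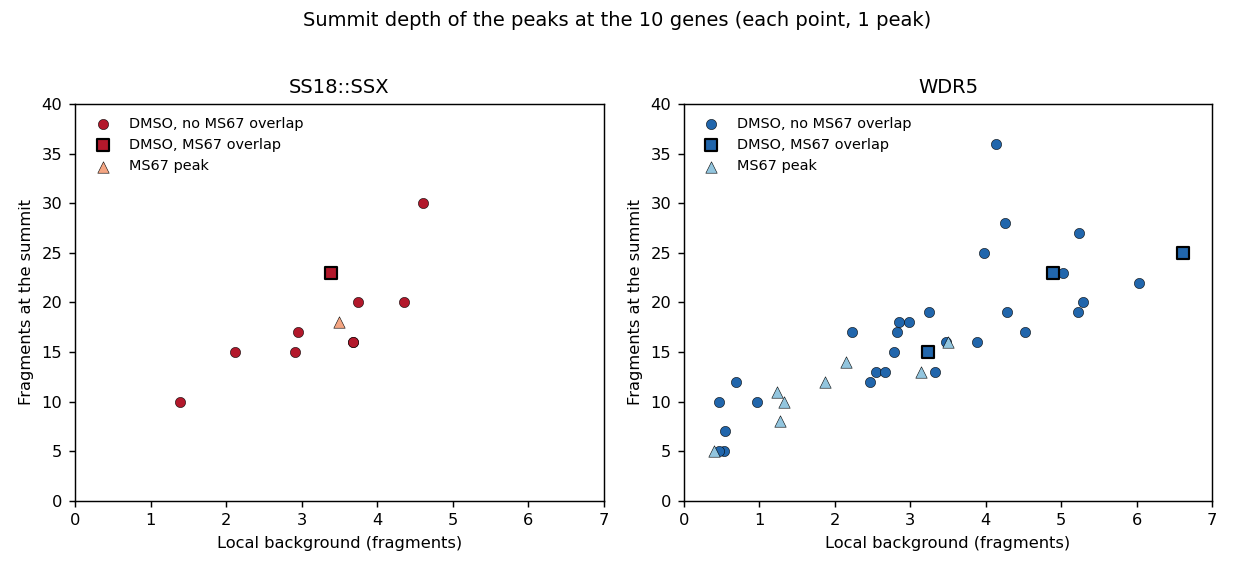
Fragments at the summit (y axis) against the local background in fragments (x axis) for each peak of the 10 genes, SS18::SSX on the left and WDR5 on the right; circles are DMSO peaks without an MS67 overlap, squares DMSO peaks with one, and triangles MS67 peaks. The 3 WDR5 peaks with an overlap held 15, 23, and 25 fragments, fewer than the 28 and 36 of the VIM peaks, which had none.

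In sequence, the SS18::SSX summits of the members ranged in GC content from 44.5 to 72.5% (median 64%) and the WDR5 summits with DMSO from 37 to 74.5% (median 58%). The letters CACCTG were present on either strand in none of the 10 SS18::SSX summit stretches of 200 bases and in 27.9% of all SS18::SSX summits with DMSO. Among the WDR5 summits with DMSO, 2 of 31 held them, 1 upstream of *SNAI1* and the one at the *ZEB1* start printed above, next to 19.7% of the list. CCAAT was present in 2 of the 10 SS18::SSX stretches (18.4% of the list) and 9 of the 31 WDR5 stretches (16.8%), and GGGCGG in 2 (20.4%) and 3 (23.0%). None of the 3 motifs contains another. RefSeq promoter sequences of 300 bases, which lie mostly upstream of a start, were matched for 5 of the members (*CDH2*, *VIM*, *ZEB1*, *ZEB2*, and *TWIST2*), in 12 entries. Most of these entries were of *ZEB1*. Of the 12, 2 held CACCTG, both of *ZEB1*, next to 20.6% of all promoters of that length. CCAAT was present in 3 (34.6% of all promoters) and GGGCGG in 8 (45.0%). A match is a run of letters and not a bound site.

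Besides the members, 15 other genes have a start inside one of the windows, and 6 of them had a promoter peak in at least 1 list. These were the long noncoding RNA genes *EPCAM-DT*, *VIM-AS1*, *ZEB1-AS1*, *ZEB2-AS1*, *LINC01412*, and ENSG00000236536. A peak between 2 divergent or antisense genes cannot be given to one of them, and this holds for the *VIM* peak of highest −log10 q. *TANGO6*, which has starts in the *CDH1* window, had no promoter peak, nor did the long noncoding RNA genes *LINC02993*, ENSG00000260798, ENSG00000274578, ENSG00000234961, ENSG00000288761, ENSG00000287788, ENSG00000283118, and ENSG00000232821.

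Other genes of the same programme were counted at promoters with DMSO and MS67. Of 25 other epithelial genes, 7 had an SS18::SSX promoter peak with DMSO (28%, against 13.4% of all genes) and 14 a WDR5 promoter peak (56%, against 43.0%). The 7 were the tight-junction gene *OCLN*, the desmosome genes *DSP*, *JUP*, and *PKP3*, the mucin gene *MUC1*, the polarity gene *CRB3*, and the laminin gene *LAMA3*. Among them, *PKP3* had the highest SS18::SSX −log10 q (8.78, 41 fragments) and the single SS18::SSX promoter peak with MS67 (3.95, 29 fragments). These lay at 403244 to 404026 and 403367 to 403673, away from the WDR5 promoter peak of *PKP3* with DMSO at 396345 to 397299. The MS67 peak was not at the 5′ end of the gene record, since with that start alone the epithelial count with MS67 was 0. At *DSP*, SS18::SSX had 2 promoter peaks, the higher with a −log10 q of 3.68 and 16 fragments, and WDR5 had 1 with 16.2 and 35 fragments. With MS67, 7 of the 25 had a WDR5 promoter peak (28%, against 27.7% of all genes), 4 of them at genes of the SS18::SSX group (*OCLN*, *JUP*, *MUC1*, and *LAMA3*). By this definition, epithelial genes other than *CDH1* and *EPCAM* did carry SS18::SSX promoter peaks in these cells, and the pair itself did not. Several were weak, with a −log10 q of 2.58 at *CRB3*, 2.89 at *MUC1*, and 3.39 at *LAMA3*. The count of 7 rose to 13 with promoters of 2000 bp on each side and to 8 by any overlap. It fell to 5 with −log10 q and fold both above 3, to 4 with the 5′ end of the gene record alone, and to 1 with −log10 q above 5. The share of all genes was not counted under these settings, so whether the epithelial share stayed above it is not known.

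Of 18 other mesenchymal genes, 2 had an SS18::SSX promoter peak with DMSO (11.1%, against 13.4% of all genes) and none with MS67, namely the fibronectin receptor gene *ITGA5* (−log10 q of 3.14, 8 fragments) and the collagen cross-linking enzyme gene *LOX* (3.07, 7 fragments). WDR5 had a promoter peak at 11 of the 18 with DMSO (61.1%, against 43.0%) and at 6 with MS67 (33.3%, against 27.7%), *ITGA5* and *LOX* among both. Of 21 other regulators of the transition, SS18::SSX had a promoter peak with DMSO at 3 (14.3%, near the 13.4% of all genes) and with MS67 at none. These 3 were the third Snail gene *SNAI3* (3.16, 14 fragments) and the TGF-β signalling genes *SMAD2* (5.48, 12 fragments) and *SMAD7* (4.24, 17 fragments). WDR5 had a promoter peak at 13 of the 21 with DMSO (61.9%, against 43.0%) and 3 with MS67 (14.3%, against 27.7%). Of 8 partners of the ZEB and SNAI repressors, 1 had an SS18::SSX promoter peak with DMSO (12.5%, against 13.4%), *EZH2*, the methyltransferase of lysine 27 of histone H3 (4.44, 11 fragments), while WDR5 had one at 4 with DMSO (50%, against 43.0%) and 1 with MS67 (12.5%, against 27.7%). The lists are small, and 1 gene moves a share by 4 to 12.5 percentage points.

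**Figure D5:**
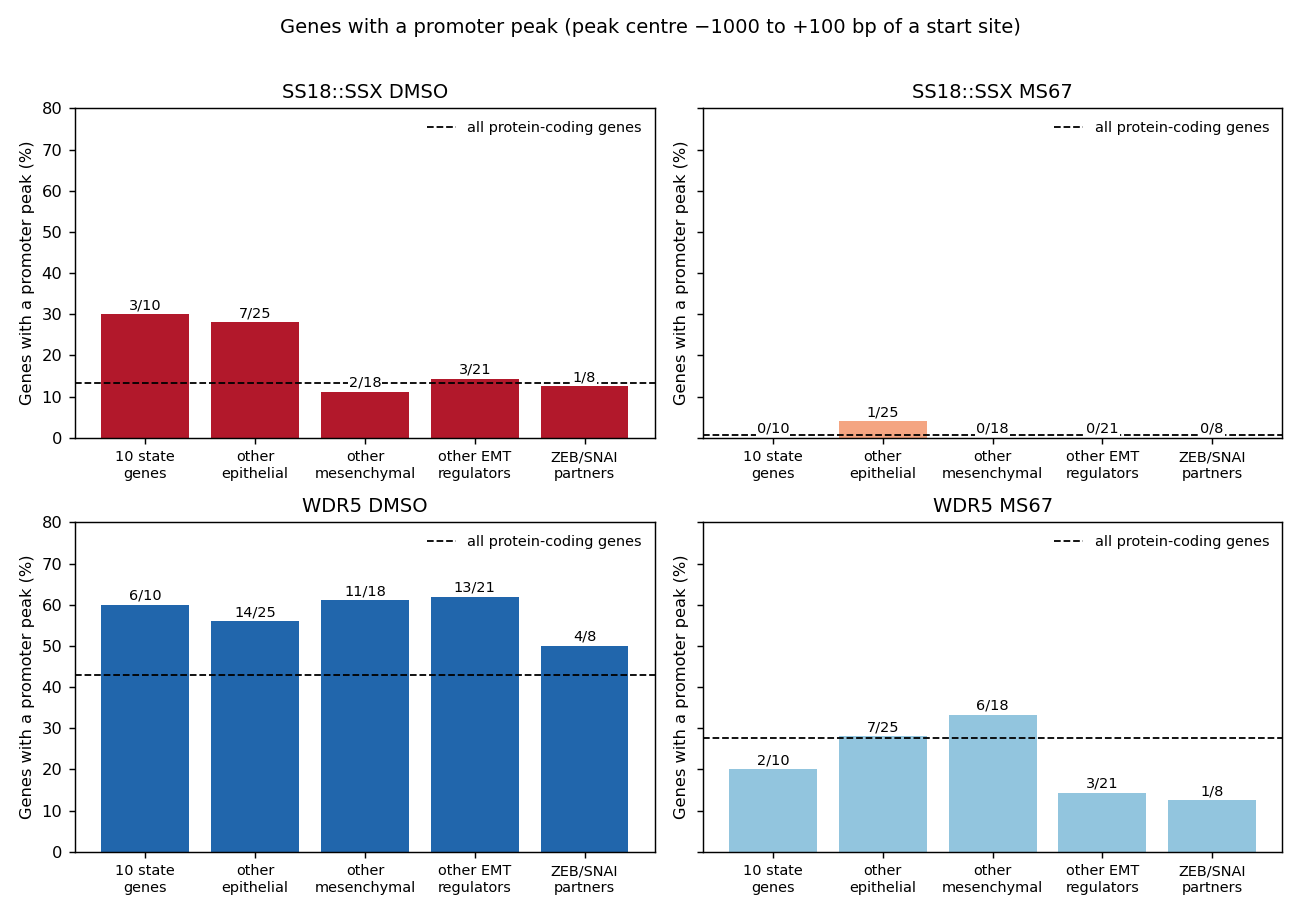
Share of genes with a promoter peak (y axis, percent) for the 10 state genes and the 4 lists of other genes (x axis), with 1 panel per library, the counts above the bars, and the share of all protein-coding genes as a dashed line. SS18::SSX with DMSO was present at 3 of the 10 state genes and 7 of 25 other epithelial genes, and with MS67 at 1 gene of all lists.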

How the data were processed

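The study made 4 CUT&RUN libraries of HSSY II cells (2 targets, 2 treatments, 1 library per group). Reads were aligned by the authors with Bowtie2 (hg38), cleared of duplicates with Picard, and used for peak calling with MACS2 in each library. For each peak, they deposited a fold enrichment (a ratio to the local background), its −log10 p and −log10 q, and a score made from the −log10 q by the authors, which was not used. Whole-number summit fragments and backgrounds were solved from fold and −log10 p and fitted 100% of the peaks within 0.001 in −log10 p. The step was tested on simulated data. Genome-wide coverage was set to the lowest background of each list. Groups followed the labels. Overlap was at least 1 bp, and intervals were exact Clopper-Pearson (95%). Every member was named, as was every listed gene with an SS18::SSX promoter peak and every gene with a start in a member window. The members and lists were chosen with earlier results of these data known. The alternatives were stricter peaks, other windows, promoters, and overlaps, merged peaks, reduced DMSO lists, and RefSeq gene positions, the last chosen after seeing the data. The analysis used Python 3.11.15, numpy 2.4.6, pandas 2.3.3, scipy 1.17.1, and matplotlib 3.10.9.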

Additional observations from a re-analysis of the deposited data

How the results depend on the processing

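Of 193 comparisons of 35 results with an alternative, 104 stayed within the limits set for them and 89 moved. The results are counts, lengths, and shares, which have no sign, so a change of direction could not occur. With stricter peaks (−log10 q above 3, with a fold above 6 in the WDR5 lists and above 3 in the others), which leave fewer peaks by construction, WDR5 at the members fell to 3 peaks (1461 bp, 1 promoter) with DMSO and 0 peaks (0 bp, 0 promoters) with MS67, 0 of 3 WDR5 peaks were kept, 0 of 10 SS18::SSX peaks overlapped WDR5, and the other lists had 7 and 4 WDR5 promoters with DMSO and MS67. With −log10 q above 5, SS18::SSX had 4 peaks (0 promoters) with DMSO and 0 (0 bp) with MS67, WDR5 had 13 (5516 bp) and 0 (0 bp, 0 promoters), none of the 4 and 13 was kept (0%), and the other lists had 2 and 0 SS18::SSX promoters and 24 and 5 WDR5 promoters. Without flanks, which shortens the windows, SS18::SSX covered 2441 bp with DMSO and had 0 peaks (0 bp) with MS67, so 0 of 7 were kept, and WDR5 had 18 peaks (5382 bp) and 4 (780 bp). With 50 kb of flank, WDR5 had 47 peaks and 14 (3692 bp). With DMSO lists as short as the MS67 lists, SS18::SSX had 1 peak (0 promoters, 0 kept) and WDR5 13, next to 1 and 8 with MS67. This setting makes both lists of a target equally long by construction. The equal SS18::SSX counts therefore cannot show whether peaks were lost with MS67. With promoters of 2000 bp on each side, the other lists had 27 SS18::SSX promoters with DMSO and 28 WDR5 promoters with MS67, and 1 member had an SS18::SSX promoter with MS67, as it did by any overlap. With the 5′ end of the gene record alone, the members had 1 SS18::SSX promoter with DMSO and 0 WDR5 promoters with MS67, and the other lists had 8 and 0 SS18::SSX and 20 and 6 WDR5 promoters. With an overlap of at least 50%, 0 of 31 WDR5 peaks were kept, and with a peak within 1 kb, 8 of 31 (25.8%). Merged peaks and RefSeq positions moved none of these values past the limits. Shares over all genes and whole lists were not counted under these alternatives, so the counts have no background here.

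No paired analysis was possible because each group had 1 library and no replicate to leave out. Depth was recovered from called peaks, so a signal under the calling threshold does not appear, and a missing peak means not detectable at this depth. Spike-in scaling was not used here.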
